A study of Mus musculus with 6 samples.

Results

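The CD8 T cells of SB28 brain tumors were described: 174 cells from 2 single-cell RNA libraries, 114 of 9352 cells in library 1 and 60 of 8714 cells in library 2. They were selected on their own counts of unique molecular identifiers (UMIs, each an RNA molecule counted once). A member had at least 2 UMIs of Cd3e, Cd3d and Cd3g together, at least 1 of Cd8a and Cd8b1 together, no Cd4 UMI, at most 2 UMIs of the macrophage genes C1qa, C1qb and C1qc together, and less than 0.5% of its UMIs from S100a8 and S100a9. It also had 200 or more genes detected and no more than 10% of its UMIs from mitochondrial genes. Both libraries held CD45+ cells, that is leukocytes, from tumors of SB28, a mouse glioma cell line, taken on day 18 after injection of 10000 cells into mice. The labels state no strain, age, sex, genotype change or drug treatment for the mice. The other 4 libraries held neutrophils of such mice that were sorted as CD45+ CD11b+ LY6G high and LY6C low or negative, 2 from blood and 2 from tumor. In them the same rule found 2 cells, both in library 1 of the tumor sort, so they were used no further. Samples carry numbers, but no label ties a number to a mouse of its own. The p-values therefore reflect the spread of the sequenced samples alone, and that spread may be technical.

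CD8 T cells recognise peptides on MHC class I molecules through their T cell receptor and kill the presenting cell with perforin and granzymes or through Fas ligand. In tumors, cells that meet their antigen for a long time are known to gain inhibitory receptors such as PD-1, LAG-3 and TIM-3 together with the transcription factor TOX, while cells that express TCF-1 (Tcf7) keep features of memory. CD4 T cells recognise MHC class II and include helper cells and Foxp3-expressing regulatory T cells, and natural killer (NK) cells kill without a rearranged receptor.

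The CD8 T cells made up 1.22% of the kept cells in library 1 (exact 95% binomial interval 1.01 to 1.46) and 0.689% in library 2 (0.526 to 0.885), a mean of 0.954% ± 0.375 (SD, n = 2). The intervals cover counting error only and do not overlap, so the libraries differed by more than that. The comparison sets came from the same libraries. CD4 T cells met the same Cd3 and C1q limits with at least 1 Cd4 UMI and no Cd8a or Cd8b1 UMI, and numbered 48 and 19. NK cells had no Cd3 UMI and at least 2 UMIs of Ncr1 and Klrb1c together, and numbered 95 and 58. Another 90 and 65 cells passed the Cd3 limit without a Cd4 or Cd8 UMI, and 3 and 1 had both.

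That the members were T cells was checked on genes that the rule did not use. A UMI of Trac, the constant part of the T cell receptor alpha chain, was found in 92 of 114 and 52 of 60 CD8 T cells and in 2 of 95 and 5 of 58 NK cells. Themis, a T cell signalling protein, was found in 104 and 58 CD8 T cells and in no NK cell. The NK cells were selected for no Cd3 UMI, so this contrast follows in part from the selection. It does not check CD8 against CD4 T cells, between which Trac was not called (log2 fold change 0.08 in the comparison below). The median member had 8 Cd3 and 4 Cd8 UMIs in library 1 and 14 and 5 in library 2, and Cd8b1 was seen in 92 and 56 members. At the edge of the rule, 11 and 3 members had exactly 2 Cd3 UMIs and 5 and 1 further cells had exactly 1. The C1q limit left out more: 25 and 16 members had exactly 2 C1q UMIs, 3 and 3 further cells had exactly 3, and 80 and 50 had more than 2. Those 80 and 50 cells had median depths of 16731.5 and 23576.5 UMIs. Doublets, droplets with more than 1 cell, were not removed in the main analysis.

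The libraries held 9418 and 8851 barcodes with 82077047 and 129422458 UMIs. The CD8 T cells contributed 780373 and 582963 UMIs, with medians of 5495.5 and 7475.5 UMIs per cell. The medians were 4689 and 5526 in CD4 T cells, 2964 and 4752 in NK cells, and 11513.5 and 17948 in C1q-rich phagocytes (at least 10 C1q UMIs and no Cd3 UMI), which served as background. Library 1 shared 162 barcodes with library 2 of the sorted tumor neutrophils, and the other pairs with a CD45+ library shared 6 to 35. Of the members, 1 and 2 cells carried a shared barcode. UMIs of macrophage genes were present in the sets. The 10 macrophage and microglia markers summed to 2950 and 2266 CPM (UMIs of a gene scaled to a common total of 1e+06 UMIs per sum) in CD8 T cells, 4765 and 2150 in CD4 T cells, 4641 and 1235 in NK cells, and 34916 and 37351 in the phagocytes. No erythroid marker (Hba-a1, Hbb-bs, Alas2) had a UMI in the CD8 T cells, and Ncr1, the defining NK receptor, had none in library 1 and was seen in 1 cell of library 2. Markers of other cells were present. The 6 NK markers, which include Klre1, Eomes and Gzma, summed to 561 and 448 CPM in CD8 T cells, against 5280 and 5443 CPM in NK cells. In CD8 T cells platelet markers summed to 110 and 237 CPM, neutrophil markers to 25.6 and 142 and tumor or stroma markers to 58.9 and 99.5. The phagocytes had more of each: 1640 and 1601 CPM of the platelet markers, 268 and 247 of the neutrophil markers and 147 and 188 of the tumor or stroma markers. Dendritic markers summed to 37.2 and 48.0 CPM and B cell markers to 30.8 and 5.15.

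The first question was how CD8 T cells differed from the CD4 T cells of the same tumors. UMIs were summed per library and set, and edgeR's quasi-likelihood test was applied with the library as a block, since both sets of a library share it. The genes of the selection rule were left out. Of 6651 genes tested, 280 were higher in CD8 T cells (4.21%) and 274 were lower (4.12%) at a Benjamini-Hochberg adjusted p under 0.05. These counts depended on the model and on the cells: this fit has 1 residual degree of freedom and took the spread of each gene wholly from the trend over genes. DESeq2 called 52 and 44 genes, and edgeR without the block 43 and 33, with 22 higher and 17 lower in all 3 fits. Nothing was called among the 63 and 24 CD8 and 27 and 9 CD4 T cells without a C1q UMI, where 211 and 202 genes had an unadjusted p under 0.05. For most genes named below, the levels in both libraries and the fits that called them are therefore given. Counts of called genes per list are to be read beside the 4.21% higher and 4.12% lower over all tested genes.

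Most cytotoxic genes were higher in CD8 T cells. Of 16 tested cytotoxic effectors, 11 were higher and 1 (Srgn) was lower, with a median log2 fold change of 2.03 against 0.01 over all tested genes. Perforin, Prf1, which forms the pore through which granzymes enter, was at 206 and 203 CPM in the CD8 T cells of libraries 1 and 2 and at 3.01 and 12.6 CPM in the CD4 T cells. The ratio was 33.6 (95% counting interval 11.4 to 164, from 3 CD4 UMIs). Granzyme A, Gzma, was at 384 and 324 CPM against 6.01 and 6.28 CPM, a ratio of 58.9 (interval 20.0 to 287). Nkg7, a granule membrane protein of killer cells, was at 1271 and 1266 CPM against 117 and 151 CPM (log2 fold change 3.27 ± 0.25 SE, edgeR's adjusted p = 2.02e-36). Prf1, Gzma and Nkg7 were each called by all 3 fits and were high in both CD8 sums. Fasl, the ligand that triggers death through Fas, was at 105 and 117 CPM against 18.0 and 12.6 CPM (log2 fold change 2.74 ± 0.47) and was called by both edgeR fits. Serpinb9, an inhibitor of granzyme B, was at 300.1 and 395 CPM against 141 and 81.7 CPM and was called by the blocked edgeR fit and DESeq2. Without any C1q UMI in the cells the log2 fold change of Nkg7 was 3.26 (adjusted p = 0.0846 with edgeR), and against CD4 T cells without Foxp3 or Il2ra it was 2.76 (adjusted p = 0.00669). Prf1 was at 3.61 without any C1q UMI in the cells (adjusted p = 0.149 with edgeR). Gzma was not among the genes tested in those cells, so its ratio was not checked there.

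The granzymes were spread unevenly over cells. Nkg7 had a UMI in 105 of 114 and 56 of 60 CD8 T cells and Prf1 in 51 and 31, whereas Gzma was seen in 21 and 8 cells and Gzmk, a granzyme known from memory-type cells, in 37 and 20. In the phagocytes the shares of cells with a UMI were 1.53% and 1.01% for Nkg7, 0.558% and 0.379% for Prf1, 0.851% and 0.758% for Gzma and 0.147% and 0.0758% for Gzmk. Gzmk was at 75.7 and 88.3 CPM against 0 and 6.28 CPM and was called by both edgeR fits, while DESeq2 gave no adjusted p for it. Gzmf was concentrated in few cells: 169 UMIs came from 2 cells of library 1, 154 of them from 1 cell, and 714 UMIs came from 9 cells of library 2, up to 240 in a cell. No CD4 T cell had a Gzmf UMI, so its level over both libraries was at least 115-fold higher, taking 3 UMIs in all CD4 T cells as the floor. DESeq2 did not call it (adjusted p = 0.252). Gzmb, the granzyme most often used to mark killer cells, was at 114 and 123 CPM in CD8 and at 147 and 264 CPM in CD4 T cells, a difference that was not called (log2 fold change -0.72 ± 0.30, adjusted p = 0.127 with edgeR). It was positive, at 1.11, when CD4 T cells with a Foxp3 or Il2ra UMI were left out, and was not called there either (adjusted p = 0.743 with edgeR).

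Since Prf1, Gzma, Gzmf and Nkg7 were all higher in CD8 T cells, the sequence just before their start sites is shown, from the RefSeq promoter table on build GRCm38.p6, the same assembly as mm10. Each runs 5′ to 3′ on the gene's own strand and ends before the first transcribed base of RefSeq or GENCODE. Capitals mark the core motif of RUNX factors, TGTGGT or ACCACA on the other strand, and of T-box factors, TCACAC or GTGTGA.
Prf1, chr10:61297586-61297832, plus strand: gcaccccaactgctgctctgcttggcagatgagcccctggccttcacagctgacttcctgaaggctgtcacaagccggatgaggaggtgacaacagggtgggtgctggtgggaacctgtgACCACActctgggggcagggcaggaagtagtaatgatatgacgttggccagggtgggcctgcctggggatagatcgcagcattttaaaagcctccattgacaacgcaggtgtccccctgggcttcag
Gzma, chr13:113100982-113101231, minus strand: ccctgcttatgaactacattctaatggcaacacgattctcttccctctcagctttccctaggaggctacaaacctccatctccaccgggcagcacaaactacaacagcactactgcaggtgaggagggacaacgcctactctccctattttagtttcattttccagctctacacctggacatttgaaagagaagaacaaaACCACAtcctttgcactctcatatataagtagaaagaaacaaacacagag
Gzmf, chr14:56211418-56211657, minus strand: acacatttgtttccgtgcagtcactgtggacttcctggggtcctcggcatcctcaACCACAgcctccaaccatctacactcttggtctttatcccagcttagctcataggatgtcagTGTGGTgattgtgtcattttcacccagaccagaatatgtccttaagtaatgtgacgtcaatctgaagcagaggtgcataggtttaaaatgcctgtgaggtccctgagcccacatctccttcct
Nkg7, chr7:43436888-43437072, plus strand: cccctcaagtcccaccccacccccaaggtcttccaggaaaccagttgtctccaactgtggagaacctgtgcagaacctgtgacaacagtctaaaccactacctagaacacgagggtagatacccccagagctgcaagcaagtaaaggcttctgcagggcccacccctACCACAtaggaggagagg
The RUNX core was found in all 4 printed stretches, once in Prf1, Gzma and Nkg7 and at 2 places in Gzmf, and no printed stretch held the T-box core. Over the 250 bases before the start site, 11 of 19 cytotoxic-list promoters in the table held the RUNX core (57.9%), against 14.0% of all 32851 promoters, and 4 of 19 held the T-box core (21.1%, against 12.3%). Of the 10 genes among these 19 that were called higher in CD8 T cells, 6 held the RUNX core (60%), a share near that of the whole list. Ctsw was called higher too but was not among the 19. Fasl, Gzmk, Serpinb9 and Serpinb6b were called higher and held none. The RefSeq start sites used for Gzmk and Serpinb9 lay 44943 and 1291 bases from the GENCODE starts, so other promoters of these genes may have been missed. Gzmb, Gzmc, Gzmd, Gzme and Gzmf held 2 each. Of these Gzmc and Gzmf were called higher and Gzmb was not called, while Gzmd and Gzme did not enter the test. Gzmb and Gzmf are neighbours on chromosome 14 (56258838-56262260 and 56205263-56211417), as are Gzma and Gzmk on chromosome 13 (113093825-113100981 and 113171608-113225908), so these promoters are not independent. A match is a description of the letters and was not tested for binding. Runx3 RNA, of the RUNX factor known from the CD8 lineage, was at 409.7 and 401 CPM against 228 and 276 CPM and was not called (adjusted p = 0.0657 with edgeR).

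**Figure D1:**
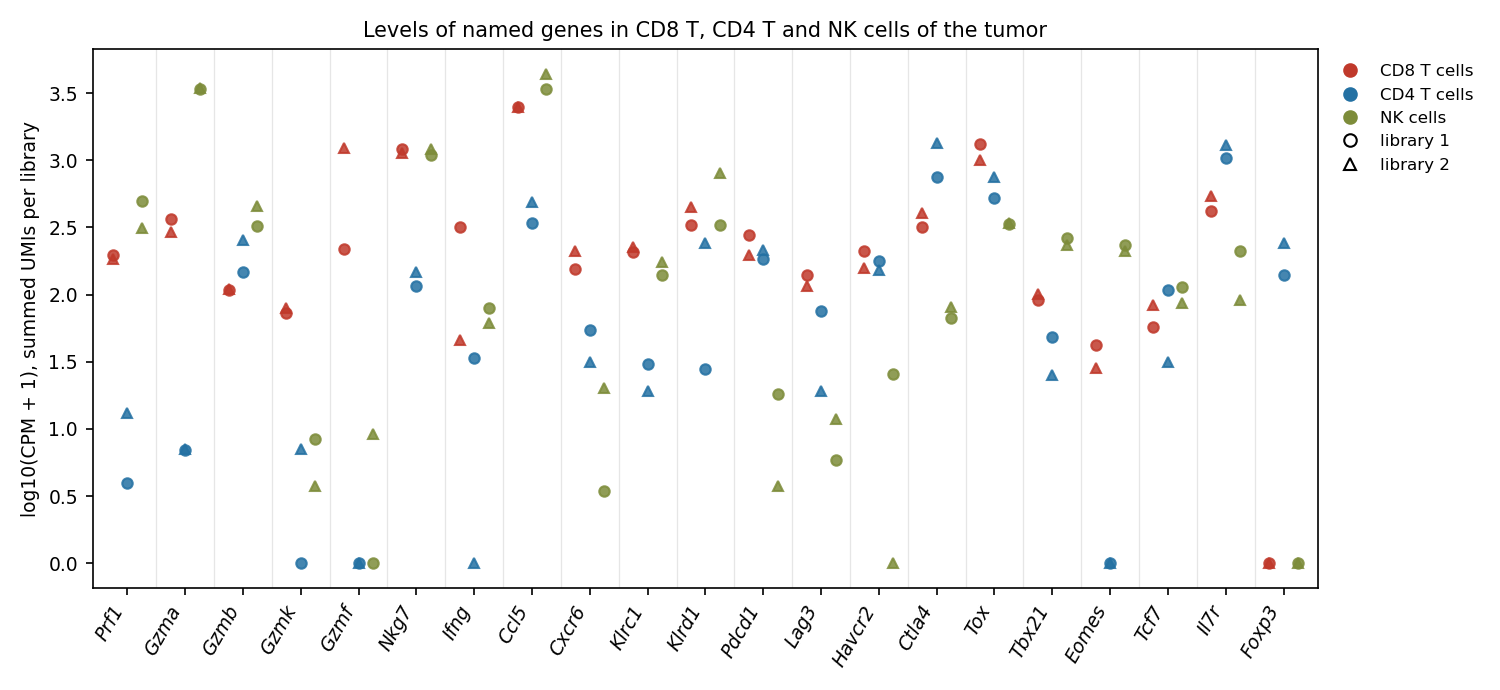
Level of 21 named genes as log10(CPM + 1), from UMIs summed per library without scaling factors, in CD8 T cells, CD4 T cells and NK cells. Circles are library 1 and triangles library 2. Prf1, Gzma, Gzmk, Nkg7 and Ccl5 lie above the CD4 T cells in both libraries, and Foxp3 is at 0 in both CD8 sums.

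CD8 T cells also carried receptors named for NK cells. Of 13 tested NK-type receptor genes, 7 were higher and 2 were lower than in CD4 T cells, with a median log2 fold change of 1.32. Klrc1, which encodes NKG2A, an inhibitory partner of CD94, was at 216 and 253 CPM against 30.1 and 18.8 CPM (log2 fold change 3.13 ± 0.40) and was called by all 3 fits. It was seen in 71 and 40 CD8 T cells and in 4 and 1 CD4 T cells. Klre1 was seen in 40 and 21 CD8 T cells and in no CD4 T cell, at least 21.5-fold higher, and was called by both edgeR fits. Klrd1, which encodes CD94, was at 347 and 499 CPM against 27.0 and 251 CPM. Its CD4 libraries differed by more than the CD8 libraries did, 1 cell gave 20 of the UMIs in library 2, and only the blocked edgeR fit called it. Klrk1, the activating receptor NKG2D, was at 169 and 169 CPM against 30.1 and 201 CPM and was not called. The genes lower in CD8 T cells were Klrg1 and Tyrobp. Klrb1c, an NK marker, had UMIs in 13 and 2 CD8 T cells.

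Of 10 tested genes of cytokines and chemokines, 3 were higher in CD8 T cells and Il10 was lower. Ccl5, a chemokine stored by memory and effector T cells, was at 2605 and 2779.9 CPM against 346 and 509 CPM (log2 fold change 2.69 ± 0.19) and was called by all 3 fits. Ifng, the main cytokine of CD8 T cells, was at 337 and 49.9 CPM against 33.1 and 0 CPM. It was lower in library 2 of the CD8 T cells than in library 1, and the call held in DESeq2 but not without the block. The chemokines Ccl4 (523 and 177 CPM against 261 and 113 CPM) and Ccl3 (288 and 86.3 CPM against 246 and 25.1 CPM) overlapped between the sets, and of these Ccl4 was called by the blocked edgeR fit alone. Cxcr6, a receptor for CXCL16 on tissue T cells, was at 162 and 234 CPM against 54.1 and 31.4 CPM (log2 fold change 2.04 ± 0.36) and was called by all 3 fits. Fitted in library 1 alone its log2 fold change was 1.62, and in library 2 alone 2.97. Itga1, the collagen-binding integrin CD49a of resident T cells, was at 127 and 88.3 CPM against 21.0 and 12.6 CPM and was called by both edgeR fits. Of 21 homing genes tested 3 were higher and 3 lower, Itgb7 and Ccr2 among the latter, with a median of 0.06. Itgae, the CD103 chain of resident T cells, was low, at 8.11 and 13.4 CPM against 42.1 and 31.4 CPM, and was not called (adjusted p = 0.0606 with edgeR).

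Inhibitory receptors were present in both T cell sets. Of 20 tested genes of inhibitory receptors and exhaustion, 5 were higher in CD8 T cells and 2 lower, with a median log2 fold change of 0.10. Pdcd1, which encodes PD-1, was at 292 and 219 CPM in CD8 and at 186 and 219.9 CPM in CD4 T cells (log2 fold change 0.36 ± 0.28, adjusted p = 0.59 with edgeR). Havcr2, which encodes TIM-3, was at 223 and 177 CPM against 180.3 and 157 CPM and was not called either. Lag3, a receptor that binds MHC class II, was at 147 and 129 CPM against 75.1 and 18.8 CPM. Only the blocked edgeR fit called it (log2 fold change 1.44 ± 0.37), and its log2 fold change was 1.01 in library 1 and 2.83 in library 2. Tox, the transcription factor of exhausted cells, was at 1382 and 1122 CPM against 532 and 773 CPM (log2 fold change 0.97 ± 0.20) and was called with the block by edgeR and by DESeq2. Cd160, a receptor shared by CD8 T and NK cells, was at 70.3 and 109 CPM against 3.01 and 0 CPM, a ratio of 42.5 (interval 7.47 to 1695), and was called by both edgeR fits. Rgs16, a regulator of G protein signalling, was called by all 3 fits, at 224 and 177 CPM against 48.1 and 6.28 CPM. Ctla4, a competitor of CD28 that regulatory T cells carry in quantity, was lower in CD8 T cells, at 333 and 453 CPM against 757 and 1388 CPM (log2 fold change -1.40 ± 0.21). This sign depended on the make-up of the CD4 set: against the 19 and 7 CD4 T cells without a Foxp3 or Il2ra UMI it was 0.16 (adjusted p = 0.986 with edgeR).

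By cell, a Pdcd1 UMI was found in 68.4% of CD8 T cells in library 1 (78 of 114, exact 95% interval 59.1 to 76.8) and 76.7% in library 2 (46 of 60, interval 64.0 to 86.6). After each cell was thinned to 1000 UMIs these shares were 28.9% and 18.3%, against 0.0598% and 0.101% of the phagocytes, in which 1.20% and 1.49% had a Pdcd1 UMI before thinning. Lag3 was found in 55 of 114 and 30 of 60 CD8 T cells, thinned 12.3% and 13.3%, against 1.11% and 2.38% of thinned phagocytes and 7.92% and 14.3% before thinning. Ctla4 was found in 69.3% and 86.7%, thinned 21.9% and 45.0%, against 1.29% and 0.253% in thinned phagocytes and 8.42% and 4.93% before thinning. Havcr2 was found in 48.2% and 46.7% of CD8 T cells but in 58.4% and 65.7% of the deeper phagocytes, and after thinning in 20.2% and 13.3% against 11.5% and 10.1%. Phagocytes are known to express Havcr2, and the part of their RNA in the CD8 share was not tested. No CD8 T cell had a Foxp3 UMI, 0 of 114 and 0 of 60, which by the limit of 3 counts allows a share of cells with a UMI of up to 2.63% and 5%.

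**Figure D2:**
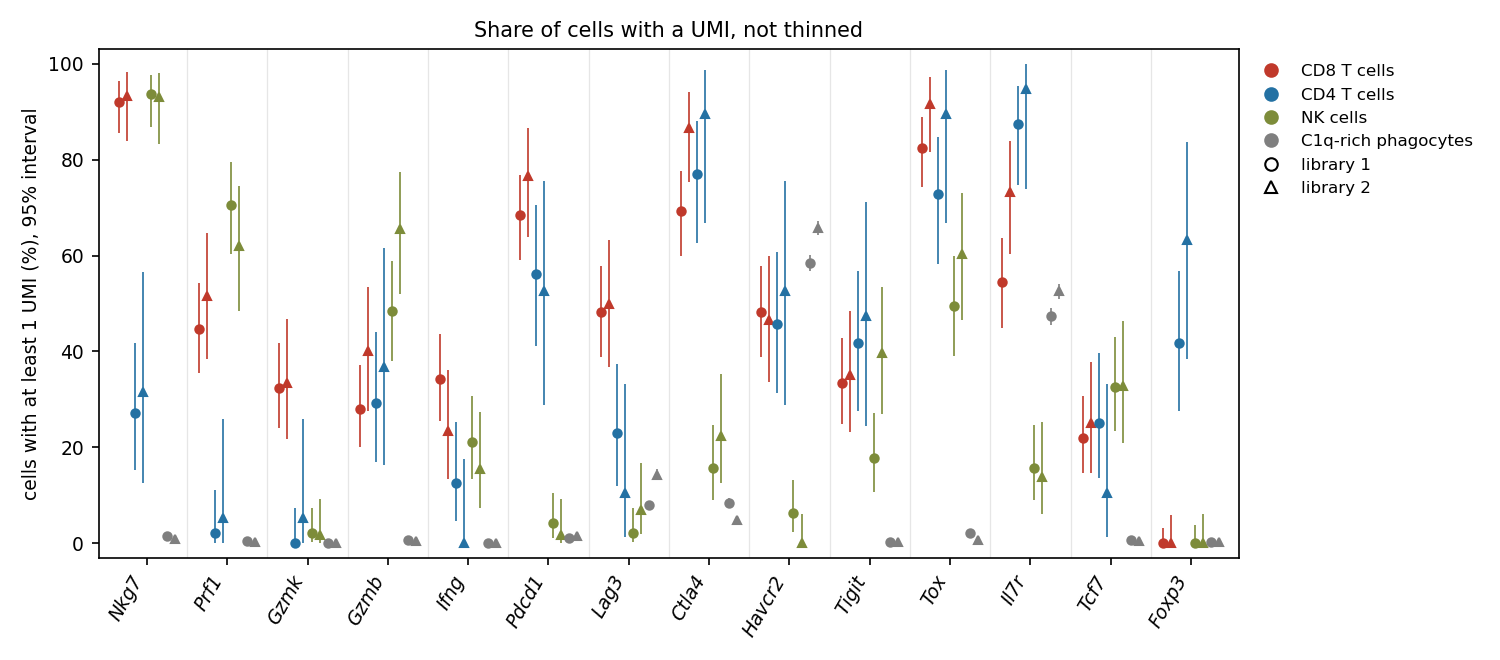
Share of cells with at least 1 UMI of each gene, before thinning, with exact 95% binomial intervals as vertical lines, in CD8 T cells, CD4 T cells, NK cells and C1q-rich phagocytes. Nkg7 was seen in 92.1% and 93.3% of CD8 T cells and Pdcd1 in 68.4% and 76.7%, against at most 1.53% of phagocytes for both, while Havcr2 and Il7r were seen in 46.7% to 73.3% of CD8 T cells and in 47.3% to 65.7% of phagocytes.

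The 5 receptors Pdcd1, Havcr2, Lag3, Tigit and Ctla4 were often seen in the same CD8 T cell. In library 1, 65 of 114 cells had UMIs of at least 3 of them and 13 had none, and in library 2 it was 43 of 60 and 5. In NK cells at least 3 were seen in 1 cell of each library. The number moved with depth, from a median of 4877 UMIs in CD8 T cells of library 1 with none to 7713 UMIs in those with all 5, and from 5404 to 9852 in library 2. In cells thinned to 1000 UMIs, at least 2 of the receptors were seen in 28 of 114 and 16 of 60 CD8 T cells and in no NK cell of either library. In the CD4 T cells it was 12 of 48 and 4 of 19. Pdcd1 and Havcr2 were seen together in 44 and 25 CD8 T cells and Pdcd1 and Lag3 in 46 and 28.

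**Figure D3:**
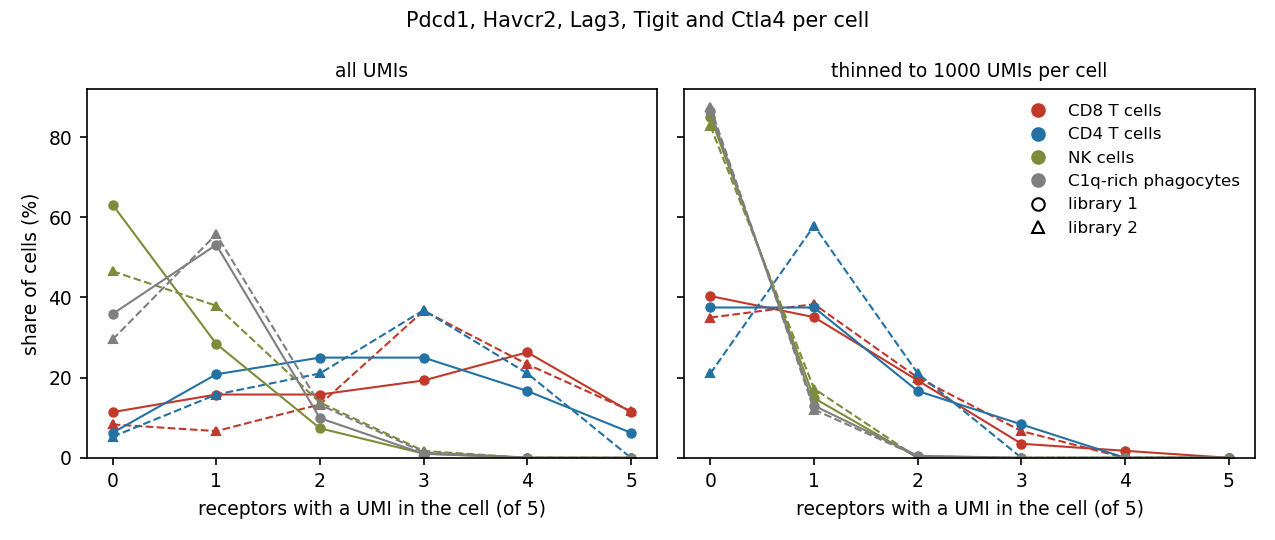
Share of cells by how many of Pdcd1, Havcr2, Lag3, Tigit and Ctla4 had a UMI in the cell, with all UMIs and after thinning to 1000 UMIs per cell. Solid lines with circles are library 1 and dashed lines with triangles are library 2. Both T cell sets lie to the right of NK cells and phagocytes, and the CD8 and CD4 lines cross each other.

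Genes of naive and memory cells gave no common direction. Of 17 tested, 2 were higher and 2 lower, with a median log2 fold change of -0.06. Bcl2, a survival factor, was at 1138 and 1095 CPM against 334 and 119 CPM (log2 fold change 2.31 ± 0.23) and was called by all 3 fits, with 1.81 in library 1 alone and 3.28 in library 2 alone. Ly6a, the antigen Sca-1, was lower in CD8 T cells, at 206 and 94.0 CPM against 622 and 748 CPM, in all 3 fits. Il7r, the receptor of the survival cytokine IL-7, was at 438 and 600.5 CPM against 1046 and 1344 CPM (log2 fold change -1.21 ± 0.20) and was called by the blocked edgeR fit and DESeq2. Tcf7 was at 59.5 and 92.1 CPM against 108 and 31.4 CPM and was not called, and its log2 fold change, -0.06, changed sign under other settings. Tcf7 had a UMI in 25 of 114 and 15 of 60 CD8 T cells. Of these, 12 and 5 also had a Pdcd1 UMI, while 6 and 0 had a Havcr2 UMI, 3 and 2 a Gzmb UMI and none a Gzmf UMI. Such counts of single UMIs depend on depth and were not tested.

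Of 21 lineage transcription factors 4 were higher and 5 lower. Eomes, a T-box factor of killer cells, had UMIs in 27 and 11 CD8 T cells and in no CD4 T cell, at least 6.24-fold higher, and only the blocked edgeR fit called it. Tbx21, which encodes T-bet, was at 94.6 and 111 CPM against 48.1 and 25.1 CPM. This call too came from the blocked edgeR fit alone (log2 fold change 1.36 ± 0.40), with 1.01 in library 1 and 2.22 in library 2. Runx1, Ikzf2 and Foxp3 were among those lower, Runx1 by the blocked edgeR fit alone. Ikzf2, the factor Helios, had a log2 fold change of -1.17 ± 0.20, which turned to 2.31 against the CD4 T cells without Foxp3 or Il2ra (adjusted p = 0.0814 with edgeR). Maf, a factor of regulatory and helper cells, was lower in all 3 fits, at 54.1 and 57.6 CPM against 652 and 452 CPM, and so was Rora, at 270.4 and 376 CPM against 956 and 766 CPM. Zbtb7b, the factor that sets the CD4 lineage, was at 9.46 and 7.67 CPM against 24.0 and 31.4 CPM and was not called (adjusted p = 0.246 with edgeR).

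Genes of regulatory and helper T cells were mostly lower in CD8 T cells. Of 17 tested, 14 were lower and 1, Nrp1, was higher, with a median log2 fold change of -1.17. Foxp3, the master factor of regulatory T cells, was at 0 in both CD8 sums and at 141 and 251 CPM in CD4 T cells, at least 74.3-fold lower in CD8 T cells. It was seen in 20 of 48 and 12 of 19 CD4 T cells and was called by both edgeR fits, though not by DESeq2 (adjusted p = 0.214). Il2ra, the high-affinity IL-2 receptor chain, was at 91.9 and 121 CPM against 514 and 490.0 CPM (log2 fold change -2.26 ± 0.27), and Tnfrsf4, the costimulator OX40, at 59.5 and 130.5 CPM against 427 and 490.0 CPM. Both were called by all 3 fits. Izumo1r, the folate receptor FR4 of regulatory T cells, was at 6.76 and 13.4 CPM against 135 and 94.2 CPM and was called by both edgeR fits. Il10, an anti-inflammatory cytokine, had 1 UMI in all CD8 T cells against 37 and 12 in CD4 T cells. Cd40lg, the helper ligand of CD40, had UMIs in 0 and 2 CD8 T cells and in 8 and 5 CD4 T cells and was called by the blocked edgeR fit alone. Outside the lists, Frmd5, a FERM-domain gene, was at 12.2 and 86.3 CPM against 1069.8 and 2117 CPM (log2 fold change -5.26 ± 0.26) and was called by all 3 fits. It was -1.08 against the CD4 T cells without Foxp3 or Il2ra. With those cells left out, 9 genes were higher in CD8 T cells and none lower, over 19 and 7 CD4 T cells, and 238 and 182 genes had an unadjusted p under 0.05 with edgeR. Macrophage markers of at least 0.25% of UMIs were found in 14 of 48 and 2 of 19 CD4 T cells and in 16 of 114 and 7 of 60 CD8 T cells, and of 6 tested macrophage markers Csf1r (56.8 and 34.5 CPM against 177 and 101 CPM) and Lyz2 (1149 and 1251 CPM against 2071 and 1464 CPM) were lower in CD8 T cells. With such cells left out, 254 genes were higher and 260 lower, 224 and 198 of them called in the full sets too, and Foxp3 and Frmd5 were still called. Of the markers of other cells, the dendritic gene H2-DMb2 (8.11 and 5.76 CPM against 42.1 and 50.3 CPM) was lower in CD8 T cells. So was Pf4 of the platelet list, whose libraries pointed in opposite directions (112 and 263 CPM against 868 and 107 CPM). The platelet list summed to 1640 and 1601 CPM in the phagocytes. The part of such RNA in the differences between CD8 and CD4 T cells was not tested.

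Other genes named by size of change were found in few cells. Nrgn, known as a neuronal calmodulin-binding protein, was seen in 18 and 20 CD8 T cells and in no CD4 T cell, at least 14.3-fold higher. Klra7, Ptprk, Wdr95, Glp1r, Ank3 and Vipr2 were likewise at 0 in the CD4 T cells, and their bounds lay between 4.16-fold and 7.67-fold. Klra7 and Wdr95 were called by both edgeR fits and the others by the blocked fit alone. With Cd3 cells lacking Cd4 and Cd8 UMIs added to the CD4 set, Klra7 was at -0.32 (adjusted p = 0.595 with edgeR). Among those lower in CD8 T cells, Cep112 had no UMI there and was seen in 9 and 4 CD4 T cells, at least 29.9-fold lower. Tctex1d1 and Asb2 each had 1 UMI in all CD8 T cells. Rapsn, Dst, Zdhhc23, Ncmap and Ebi3 were low but present, with Dst, a cytoskeletal linker, at 6.76 and 9.59 CPM against 114 and 132 CPM. Tctex1d1, Zdhhc23, Ncmap and Ebi3 lost their calls without the block, and DESeq2 gave no adjusted p for any gene of this paragraph.

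Cytokine receptors showed changes both ways, 4 higher and 4 lower of 16 tested. Il12rb2, a chain of the receptor for IL-12, which drives interferon gamma, was at 397 and 388 CPM against 87.1 and 44.0 CPM (log2 fold change 2.50 ± 0.31), and Il6st, the shared chain of the IL-6 family, was lower, at 51.4 and 44.1 CPM against 192 and 201 CPM. Both were called by all 3 fits. Of 18 tested genes of the T cell receptor complex and signalling 3 were higher and 1, Cd2, was lower. Thy1, a surface antigen of T cells, was at 439 and 315 CPM against 174 and 101 CPM and was called by the blocked edgeR fit and DESeq2.

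Of 17 tested proliferation genes 9 were higher in CD8 T cells and none lower, with a median log2 fold change of 1.46. Mki67, a marker of cycling cells, was at 118 and 82.5 CPM against 51.1 and 6.28 CPM (log2 fold change 1.65 ± 0.41), and Top2a, the topoisomerase of dividing cells, at 196 and 67.1 CPM against 39.1 and 37.7 CPM. For Mki67 the log2 fold change was 1.24 in library 1 alone and 3.72 in library 2 alone. Neither was called without the block, and DESeq2 gave neither an adjusted p. A UMI of Mki67 or Top2a was seen in 37 of 114 (32.5%, interval 24.0 to 41.9) and 14 of 60 (23.3%, interval 13.4 to 36.0) CD8 T cells. In CD4 T cells it was 7 of 48 and 4 of 19, in NK cells 8 of 95 and 4 of 58, and in phagocytes 27.4% and 33.5%. After thinning, the CD8 shares were 10.5% and 5%, the CD4 shares 6.25% and 5.26%, the NK shares 3.19% and 1.72% and those of phagocytes 6.37% and 6.78%. No cell was called cycling from these shares, and the part of phagocyte RNA in them was not tested. Without the cells that had such a UMI, 151 genes were still higher and 185 lower in CD8 T cells, 143 and 156 of them called in the full sets too.

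Calls in the remaining lists were few, and over all tested genes 4.21% were called higher and 4.12% lower. Of 25 tested genes of glycolysis and hypoxia none was called in either direction (median log2 fold change -0.39), and of 24 interferon-stimulated genes only Samhd1, an enzyme that degrades deoxynucleotides, was called, as lower (median -0.24). Among 12 genes of MHC class I and antigen presentation only Nlrc5, the transactivator of that pathway, was higher, at 238 and 221 CPM against 150.3 and 75.4 CPM by the blocked edgeR fit alone. Of 20 immediate early and heat shock genes Hspa1a and Hspa1b were called higher and Nfkbia lower. A single cell of library 2 gave 177 of the 180 Hspa1a UMIs and 167 of the 169 Hspa1b UMIs of that sum, and without library 2 the log2 fold changes were 1.05 for Hspa1a and 0.47 for Hspa1b.

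**Figure D4:**
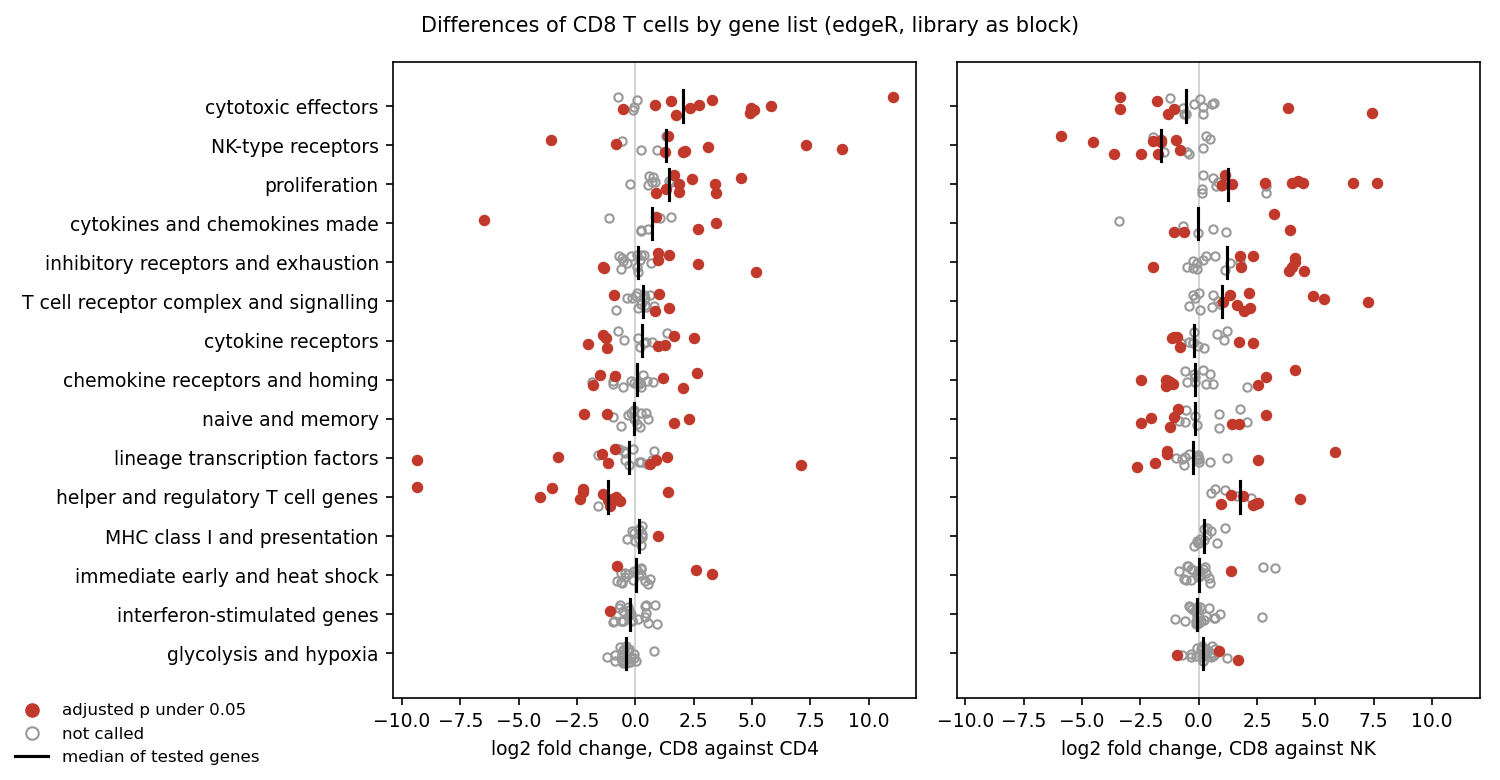
log2 fold change of each tested gene of 15 lists in CD8 T cells against CD4 T cells (left) and against NK cells (right), from edgeR with the library as a block. Filled points had an adjusted p under 0.05, open points did not, and bars mark list medians; points of genes with no UMI in a set depend on the prior count and are no measure of size. Cytotoxic effectors have a median of 2.03 against CD4 T cells and -0.54 against NK cells.

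The second question was how CD8 T cells differed from the NK cells of the same tumors, which share their killing machinery but recognise targets without a rearranged receptor. Both comparisons use the same CD8 sums, so they are not independent. Of 6746 genes tested, 181 were higher in CD8 T cells (2.68%) and 235 were lower (3.48%), with 73 and 102 by DESeq2, 154 and 184 without the block, and 69 and 94 in all 3 fits. The CPM values of CD8 T cells given here are scaled within this comparison and differ slightly from those above. List counts against NK cells are to be read beside the 2.68% higher and 3.48% lower over all tested genes. The 10 macrophage markers had 5 members tested, none called in either direction with edgeR. Gene positions from GENCODE vM21 on mm10 were found for all 71 genes looked up: Prf1 lies at chr10:61297833-61304680 on the plus strand, Nkg7 at chr7:43437073-43438249 (plus), Pdcd1 at chr1:94038305-94052553 (minus), Lag3 at chr6:124904361-124911705 (minus), Havcr2 at chr11:46454935-46481255 (plus) and Foxp3 at chrX:7573644-7595245 (plus).

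Of 18 tested genes of the T cell receptor complex and signalling, 9 were higher in CD8 T cells and none lower, with a median log2 fold change of 0.99 against 0.02 over all tested genes. The sets were selected on the presence and absence of Cd3 UMIs, and Trbc1 (-0.42), Skap1 (-0.23) and Prkcq (-0.14) were not called. Themis was at 863 and 723 CPM in CD8 T cells and at 0 in both NK sums, at least 199-fold higher. Trac was at 317 and 341 CPM against 7.47 and 14.7 CPM (log2 fold change 4.89 ± 0.32, edgeR's adjusted p = 0.000429). Cd6, a receptor that tunes T cell activation, was at 209.9 and 283 CPM against 0 and 2.95 CPM, and Bcl11b, a transcription factor that keeps T cell identity, at 182 and 157 CPM against 4.98 and 0 CPM. Their ratios were 178 (interval 31.7 to 7047) and 63.6 (interval 17.4 to 528). Trac, Cd6 and Bcl11b were called by all 3 fits, and Themis by both edgeR fits.

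The killing genes were divided between CD8 T and NK cells. Of 17 tested cytotoxic effectors 5 were lower in CD8 T cells and 2 were higher, with a median of -0.54. Gzma was at 373 and 315 CPM in CD8 T cells and at 3411 and 3710.1 CPM in NK cells (log2 fold change -3.37 ± 0.15, edgeR's adjusted p = 0.000179), and was seen in 79 of 95 and 45 of 58 NK cells. Among cells without a C1q UMI the log2 fold change of Gzma was -5.30. Gzmb was at 110.2 and 119 CPM against 326 and 487 CPM (-1.79 ± 0.22), and Gzmc at 68.2 and 67.1 CPM against 381 and 1336 CPM (-3.39 ± 0.40). Gzma, Gzmb and Gzmc were lower in all 3 fits. Prf1 was at 199 and 198 CPM against 501 and 333 CPM and was called by the blocked edgeR fit alone (-1.05 ± 0.22).

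The 2 genes of that list that were higher in CD8 T cells were Gzmk and Gzmf. Gzmk was at 73.5 and 85.8 CPM against 7.47 and 2.95 CPM (log2 fold change 3.81 ± 0.52) and Gzmf at 222 and 1331 CPM against 0 and 8.85 CPM, a ratio of 168 (interval 57.2 to 815). Both were called by all 3 fits. Nkg7 was at 1233 and 1230.4 CPM against 1101 and 1295 CPM and was not called (0.05 ± 0.15). Its sign was not stable: with counts capped at 5 UMIs per cell it was -0.45 and called, with an adjusted p of 6.62e-05 by edgeR. Ccl5 was at 2528 and 2701 CPM against 3461 and 4742 CPM and was lower by the blocked edgeR fit alone (-0.63 ± 0.13), while Ccl3 (-0.04 ± 0.79), Ccl4 and Ifng (1.15 ± 0.48) were not called. Among cells without a C1q UMI edgeR called Ccl3 (1.62, adjusted p = 0.000875) and Ifng (1.42, adjusted p = 0.00765) higher in CD8 T cells. That fit, unlike the one on the full sets, took the spread of each gene wholly from the trend over genes. Its prior degrees of freedom were infinite, against 6.68.

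Of the inhibitory receptors and exhaustion genes, 8 of 20 tested were higher in CD8 T cells than in NK cells and 1, Cd244a, was lower, with a median log2 fold change of 1.23. Pdcd1 was at 283 and 213 CPM against 17.4 and 2.95 CPM (4.53 ± 0.38, edgeR's adjusted p = 0.00089), with 4.04 in library 1 alone and 6.07 in library 2 alone. Havcr2 was at 216 and 172 CPM against 24.9 and 0 CPM (3.88 ± 0.52). Lag3 was at 143 and 125 CPM against 4.98 and 11.8 CPM (4.01 ± 0.41), and Ctla4 at 323 and 440.0 CPM against 67.3 and 85.5 CPM (2.31 ± 0.22). Tox was at 1341 and 1091 CPM against 336 and 369 CPM (1.78 ± 0.18). All 5 were called by all 3 fits. Tigit, an inhibitory receptor that NK cells carry as well, was at 76.1 and 63.4 CPM against 59.8 and 115 CPM and was not called (-0.26 ± 0.33, adjusted p = 0.743 with edgeR).

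Of 17 tested NK-type receptor genes 10 were lower in CD8 T cells and none higher, with a median of -1.61. Klra4, a Ly49 receptor for MHC class I, had 1 UMI in all CD8 T cells and was at 521 and 605 CPM in NK cells. Klra8, the activating receptor Ly49H, had 7 UMIs in 1 CD8 T cell, against 371 and 304 CPM in NK cells. The reads of Ly49 genes, which resemble each other, may have been divided among them by the authors' counting. Klrk1 was at 164 and 164 CPM against 446 and 563 CPM (-1.61 ± 0.20). The signalling adaptors Tyrobp and Fcer1g were lower too, with log2 fold changes of -1.74 ± 0.16 and -1.61 ± 0.15. Klrd1 was not called (-0.42 ± 0.24), but was called as lower among cells without a C1q UMI (-0.80, adjusted p = 0.0281 with edgeR). The spread in that fit too came wholly from the trend over genes.

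Differentiation genes also differed. Eomes was at 42.0 and 29.8 CPM in CD8 T cells against 234 and 227 CPM in NK cells (-2.66 ± 0.24), and Irf8 at 218 and 267 CPM against 907 and 867 CPM (-1.88 ± 0.19). Tbx21 was lower too, in both edgeR fits (-1.38 ± 0.21). Klf2, a transcription factor of quiescent and circulating lymphocytes, was at 146 and 119 CPM against 650.3 and 454 CPM (-2.05 ± 0.20). Bcl2, which was higher than in CD4 T cells, was lower than in NK cells, at 1104 and 1064 CPM against 2462 and 2637 CPM (-1.23 ± 0.13). Il7r was higher, at 425 and 583 CPM against 214 and 97.3 CPM (1.72 ± 0.35). Tcf7 was not called (-0.53 ± 0.29). Cxcr6 was at 157 and 227 CPM against 2.49 and 20.6 CPM (4.12 ± 0.42), with 5.90 in library 1 alone and 3.47 in library 2 alone.

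Part of the proliferation and helper lists was higher than in NK cells. Of 18 tested proliferation genes 9 were higher and none lower (median 1.26), with Mki67 at 114 and 80.2 CPM against 19.9 and 5.90 CPM (2.87 ± 0.40). Of 12 tested helper and regulatory genes 7 were higher and none lower (median 1.77), among them Icos, a costimulator of activated T cells (1.88 ± 0.20). Hif1a, the oxygen-regulated subunit of the factor HIF-1, was at 708 and 813 CPM against 267 and 201 CPM (1.70 ± 0.21) in all 3 fits. Of 25 glycolysis and hypoxia genes it was joined by Mif, while Vegfa was lower, both by the blocked edgeR fit alone. No gene of the interferon-stimulated list (23 tested) or of MHC class I and presentation (12 tested) was called against NK cells with edgeR. Ifi27l2a, an interferon-induced gene, was at 979 and 498 CPM against 334 and 8.85 CPM (2.70 ± 0.65, adjusted p = 0.0542 with edgeR). Among cells without a C1q UMI it was called at nearly the same fold (2.67, adjusted p = 5.99e-15 with edgeR). That fit took the spread of each gene wholly from the trend over genes, so the small p does not reflect the gap between the NK libraries. Gldc, the glycine-cleaving enzyme, was seen in 29 and 28 CD8 T cells, in no NK cell and in 3.58% and 6.87% of phagocytes, at least 31.5-fold higher than in NK cells, and Eya1, a developmental phosphatase, in 29 and 24 NK cells and in no CD8 T cell, at least 67.2-fold lower.

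Within the CD8 T cells, some pairs of these genes were counted in the same cells. The counts were not compared with the overlap that the share of each gene alone would give. Prf1 (51 and 31 cells) and Pdcd1 (78 and 46 cells) were found together in 39 of 114 and 28 of 60 cells. Of 21 and 8 cells with a Gzma UMI, 14 and 6 also had a Gzmk UMI. Of 2 and 9 cells with Gzmf, 2 and 6 had Gzmc, 2 and 8 had Pdcd1, 0 and 1 had Gzmk and none had Tcf7. Tcf7 was seen in only 25 and 15 of all members. Gzma was seen in 2 of the 2 Gzmf cells of library 1 and in 0 of the 9 of library 2. The cells with both Gzmf and Gzmc were deep, with median depths of 16027.5 and 10737 UMIs against 5495.5 and 7475.5 over all members, and these counts were not tested.

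Variable segments of the T cell receptor were seen in few cells, as 3' libraries read the far end of the transcript. A Trbv UMI was found in 17 of 114 and 9 of 60 CD8 T cells, over the 35 Trbv segments of the table, and no cell had more than 1 segment. In library 1 they were Trbv2 in 8 cells, Trbv13-1 in 4, Trbv3 in 3, and Trbv12-1 and Trbv20 in 1 each. In library 2 they were Trbv16 in 6, Trbv12-2 in 2 and Trbv3 in 1. A Trav UMI was found in 13 and 3 cells. Trbv3 was the only Trbv segment seen in both libraries, and at this depth the clonal make-up was not detectable.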

How the data were processed

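Single-cell 3' RNA libraries of 2 CD45+ tumor samples were used, and the 4 libraries of sorted neutrophils only to count cells that met the rule. The deposited values are UMI counts per gene and cell barcode, which the authors made with Cell Ranger 7.1.0. Per the submitters' processing notes the build was mm10. The gene annotation behind them is not given in the sources here used. The members and gene lists were chosen with earlier results of these data known. UMIs were summed per library and cell set (4 sums a comparison, from 164640 to 780373 UMIs) and fitted with edgeR 4.0.16 (TMM, filterByExpr, quasi-likelihood test, library as a block) in R 4.3.3. Same-numbered sums come from the same library, and their deviations correlated at 0.26 (CD4) and 0.313 (NK). P-values were adjusted by Benjamini-Hochberg over all tested genes, and a call is an adjusted p under 0.05. DESeq2 1.42.0 and a fit without the block were alternatives, as were other cell limits, thinning to 1000 UMIs, Scrublet scores and leaving out a library. A fold against a set at 0 UMIs uses a floor of 3 counts over the set, and with 1 to 3 UMIs a ratio with its 95% counting interval is given. Intervals cover counting error only. Genes were named by rule: per comparison the 12 (NK: 8) called genes of largest change each way, up to 4 genes per list by lowest p, and 32 genes always. A gene taken by size of change also needed an unchanged sign between libraries. Some results for single genes are not reported here. Other genes named, among them Fasl, Serpinb9, Csf1r, Lyz2, H2-DMb2 and Pf4, were chosen after their values were seen. On simulated counts of 6227 (CD4) and 6363 (NK) genes, 200 of them were changed. The test recovered 13.2% and 31.2% of 2-fold and 87.6% and 96.9% of 4-fold changes, with 1 and 3 false calls. The simulation gave all genes the same dispersion (spread beyond counting error) and no difference between libraries. It therefore cannot show how many calls on the real counts were false.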

Additional observations from a re-analysis of the deposited data

Results flagged for a closer look

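Cells that met the Cd3 limit without a Cd4 or Cd8 UMI were in neither T cell set. Foxp3 UMIs were found in 32 of these 90 cells in library 1 (35.6%) and in 17 of 65 in library 2 (26.2%), above the 0 of 114 and 0 of 60 CD8 T cells. A signal in cells outside the comparisons singled these values out. Il7r was seen in 77 and 57 of them and a gamma delta receptor gene in 10 and 21. Their median depths were 4249.5 and 5413 UMIs, against 5495.5 and 7475.5 in CD8 T cells, and the part of depth in these shares was not tested.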

How the results depend on the processing

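Against CD4 T cells, the 280 higher and 274 lower genes became 0 and 0 with C1q at 0 UMIs (211 and 202 at an unadjusted p under 0.05 with edgeR), 9 and 0 against CD4 T cells without Foxp3 or Il2ra (238 and 182 unadjusted), 52 and 44 with DESeq2, 159 and 127 without cells of shared barcodes, and 96 and 74 after thinning to 1000 UMIs. Without the replicate block they were 43 and 33, and against NK cells 154 and 184. The higher genes numbered 151 without Mki67 or Top2a cells and 184 without the top Scrublet scores, and the lower genes 160 with Cd8b1 required. Against NK cells, the 181 higher and 235 lower genes became 396 and 412 with at least 3 Cd3 UMIs, 73 and 102 with DESeq2, 307 and 357 with RLE factors, 400 and 430 without shared barcodes, 342 and 541 with counts capped at 5 UMIs, 475 and 382 without the filter, and 532 and 512 without the top Scrublet scores. The higher genes were 327 with the macrophage limit and 320 with a mitochondrial limit of 5%, and the lower genes 147 after thinning. With C1q at 0 UMIs fewer cells and genes entered the test, and after thinning fewer genes (1121 against CD4 and 1706 against NK cells). The weight of the trend over genes, edgeR's prior degrees of freedom, also changed. Against CD4 T cells it was infinite in the main fit, 5.43 with C1q at 0 UMIs and 10.04 without shared barcodes. Against NK cells it was 6.68 in the main fit. It was infinite with C1q at 0 UMIs (259 higher and 257 lower genes), without shared barcodes and without the top Scrublet scores. The cause of the changed counts was not tested. Of the named genes not called against NK cells, 3 to 11 gained a call under each of 11 alternatives, and none did with DESeq2 or without the block. The mean share of CD8 T cells, 0.954%, was 0.475% with C1q at 0 UMIs, where fewer cells qualify, and 0.689% to 1.22% when a library was left out. The limits on macrophage markers, capped counts and shared barcodes, and the enlarged CD4 set, were chosen after seeing the data.

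Some log2 fold changes reversed. Against CD4 T cells without Foxp3 or Il2ra they were 1.11 for Gzmb, 0.16 for Ctla4, 2.31 for Ikzf2 and 0.21 for Pgk1, none of them a call. With Cd3 cells lacking both coreceptors added to the CD4 set they were -0.32 for Klra7 and 0.0024 for Tigit. Tcf7 was 0.28 with C1q at 0 UMIs, 0.20 with DESeq2, 0.28 without Mki67 or Top2a cells and 0.0070 without the filter. Pkm was 0.37 after thinning and Bnip3 0.26 with C1q at 0 UMIs. Against NK cells Nkg7 was -0.10 with C1q at 0 UMIs, -0.039 without Mki67 or Top2a cells and -0.45 with capped counts. Ccl3 was 1.62 (a call), 0.0026, 0.19, 0.15 and 0.20 with C1q at 0 UMIs, DESeq2, no Mki67 or Top2a cells, capped counts and Scrublet, and Itga4 was -0.10 with capped counts and -0.42 after thinning. The cause was not tested. Each library alone gave the direction of the full fit for all 69 called named genes against CD4 T cells and all 65 against NK cells. Of these genes, 38 and 22 moved by over 1.5-fold in a library. For the genes named by size of change the shared direction was built in, because an unchanged sign between libraries was a condition for naming them. The shared direction is therefore no check on those genes. A fit to a single library has no residual degrees of freedom and so gives no calls.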
